A study of Homo sapiens with 6 samples.

Results

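The coactivators YAP1 and WWTR1, the DNA-binding partners TEAD1 and TEAD4, and the Hippo-linked genes CYR61, CTGF, ANKRD1, AMOTL2, LATS2 and AJUBA were followed after silencing of KLF5 in ovarian cancer cells. These 10 genes were taken by symbol from a deposited table of 29185 genes, and all 10 were found in it. SKOV3 cells, an established line from a human ovarian cancer, were the source of the polyadenylated RNA that was sequenced. In the sh-KLF5 group (3 libraries), KLF5 had been silenced with a pLKO.1-EGFP-Puro vector delivered by lentivirus, followed by selection of stable cells with puromycin. The sh-NC group (3 libraries) consisted of control SKOV3 cells, whose genotype the sample labels give as WT although their titles read NC. The sources used here describe the silenced cells as stable lines without giving a number of constructs, and do not say whether the libraries of a group came from separate cultures, so the p-values measure only the spread between these libraries.

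The Hippo pathway is a kinase cascade that restrains growth. Its kinases STK3 and STK4 (MST2 and MST1) activate LATS1 and LATS2, which phosphorylate YAP1 and WWTR1 (the protein TAZ) and keep them out of the nucleus. Unphosphorylated YAP1 and TAZ bind TEAD factors on DNA and switch on targets that include CTGF, CYR61, ANKRD1, AMOTL2 and LATS2, the last pair acting back on the pathway as inhibitors. YAP1 is also known to stabilise the KLF5 protein, a Kruppel-like transcription factor, and much of this control acts on proteins, which RNA-seq does not measure.

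The libraries held 15852319 to 17543896 reads. Normalized read counts of KLF5 in replicates 1, 2 and 3 were 4371, 4425 and 4494 for sh-NC, against 1745, 1439.9 and 1436 for sh-KLF5, so 34.8% of the control level remained (log2 fold change -1.53 with a standard error, SE, of 0.12; Benjamini-Hochberg adjusted p = 2.47e-07, limma). Values of 3 libraries are given in this order throughout. The normalized read count is the number of reads on a gene scaled by 1 factor per library. Within sh-KLF5, the pairs of libraries that included replicate 1 differed by 26.4 and 34.3 chi-square per degree of freedom, and the remaining pair by 11.6, against 4.66 to 9.33 within sh-NC. Replicate 1 of sh-KLF5 thus stood apart, and where leaving it out moved one of the 10 genes or a pathway gene across a threshold, both values are given. Of the 7 epithelial markers fixed for these cells, KRT7, KRT8 and KRT18 were lower at an adjusted p under 0.05 and none was higher. Of all tested genes, 6.85% were lower at that threshold. EPCAM, PAX8, ERBB2 and KRT19 did not pass, with log2 fold changes of -0.03, -0.25, -0.33 and 1.14 (limma adjusted p = 0.954, 0.407, 0.124 and 0.285). The summed level was 2665 to 3117 TPM (reads per length of the gene, scaled to the same total in each library) in sh-NC and 1476 to 1871 in sh-KLF5. Most of that sum was KRT7, with means of 1844 and 1080 TPM. KRT19 stayed at 1.71 TPM or below. The summed level of 5 fibroblast markers was 26.7 to 45.4 TPM in sh-NC and 13.2 to 33.8 in sh-KLF5. DCN and COL1A2 passed as lower, beside the 6.85% of all tested genes, and COL1A2 had 20 to 37 reads in sh-NC. LUM, most of the sum with means of 26.5 and 20.4 TPM, did not pass (log2 fold change -0.45, limma adjusted p = 0.361). Nor did COL1A1 (0.30, limma adjusted p = 0.539), and PDGFRB was not tested. The summed level of 3 endothelial markers was 2.01 to 2.49 TPM in sh-NC and 0.976 to 2.22 in sh-KLF5. For none of the 3 leukocyte markers listed in the table did a library hold more than 3 reads. The part of these marker changes in the results below was not tested, and in bulk RNA a smaller share of cells of a type and less RNA per cell cannot be told apart.

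The promoter sequences show which of these genes carry the letters that TEAD factors recognise. RefSeq promoters on GRCh38.p14, from 250 bases before to 50 bases after a gene start, were found for 7 of the 10 genes, with 10 starts in all, and not for TEAD1, TEAD4 and CYR61. The core TEAD letters GGAATG, searched on both strands, occurred in 6 of these 10 promoters, belonging to 6 genes, against 14.0% of all 35116 promoters. Among 59 promoters found for 42 other pathway genes, 10 (16.9%) held them. The KLF letters CCACCC were in 3 promoters (34.3% of all promoters), those of WWTR1, CTGF and ANKRD1. The AP-1 letters TGANTCA were in 1, that of ANKRD1 (7.71% of all), and the CArG box was in none (1.29% of all). Neither promoter of WWTR1 and neither promoter of KLF5 held GGAATG. No TEAD match shared a base with a match of another motif in these 6 promoters. A match is a string of letters, and no binding was measured here. The CTGF promoter is shown from position -250 to -2 because it held 3 TEAD matches, at positions -169, -104 and -95 from the start, and the 30 bases around each match of the other 5 genes are shown to compare their surroundings. NUAK2, with 2 matches, is included because it was called differentially expressed among the target genes described later. WTIP, with 3 matches, and WWC2, with 2, were not called, and WISP3, with 2, had too few reads to be tested. Their matches are not shown. Sequences read 5′ to 3′ on the strand of the gene, with TEAD matches in capitals. CATTCC is the same match on the opposite strand, and the number after each name is the position of the first base of the match. AMOTL2 and AJUBA each have a pair of starts, and 1 of the pair held the match. The matches of ANKRD1 at -128, AMOTL2 at -69, AJUBA at -59 and NUAK2 at -18 lie inside an exon of the same gene in GENCODE release 29, and the others outside its exons.
CTGF, chr6:131951374-131951622, minus strand: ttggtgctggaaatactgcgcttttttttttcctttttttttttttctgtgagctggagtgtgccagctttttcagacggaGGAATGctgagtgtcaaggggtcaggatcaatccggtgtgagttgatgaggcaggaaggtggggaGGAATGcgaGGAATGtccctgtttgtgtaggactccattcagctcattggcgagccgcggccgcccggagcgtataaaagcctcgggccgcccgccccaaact
YAP1 at -162, chr11:102110273-102110302, plus strand: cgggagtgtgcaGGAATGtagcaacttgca
ANKRD1 at -220, chr10:90921290-90921319, minus strand: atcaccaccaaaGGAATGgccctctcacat
ANKRD1 at -128, chr10:90921198-90921227, minus strand: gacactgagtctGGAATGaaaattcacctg
AMOTL2 at -69, chr3:134374499-134374528, minus strand: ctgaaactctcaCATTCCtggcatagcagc
LATS2 at 10, chr13:21061560-21061589, minus strand: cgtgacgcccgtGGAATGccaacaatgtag
AJUBA at -59, chr14:22976884-22976913, minus strand: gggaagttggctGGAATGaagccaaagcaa
NUAK2 at -197, chr1:205321925-205321954, minus strand: tcccctagtcccCATTCCtggtgggcgggt
NUAK2 at -18, chr1:205321746-205321775, minus strand: ttataacaacttGGAATGctgtgctttact

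None of the 10 genes was called differentially expressed (limma, Benjamini-Hochberg adjusted p under 0.05 with a log2 fold change beyond 1 in size), a rule that called 5.28% of the 15803 genes tested. All 10 genes had enough reads to be tested. Without the fold threshold WWTR1 and CTGF passed the adjusted p, both higher in sh-KLF5, where 6.04% of all tested genes passed as higher and 6.85% as lower. The other 8 genes did not pass, and TEAD4 and AJUBA were the ones among them with an unadjusted p under 0.05, for 4 of 10 genes in all, against 26.2% of all tested genes. The quasi-likelihood test of edgeR and DESeq2, both on the recovered reads, also called 0 of the 10 genes and passed WWTR1 and CTGF without the fold threshold. The median log2 fold change of the 10 genes was 0.09 and that of all tested genes 0.00, and the median absolute change was 0.23 against 0.22. In 2 of the 10 genes, WWTR1 and CTGF, the groups of 3 libraries did not overlap, against 31.3% of all tested genes.

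**Figure D1:**
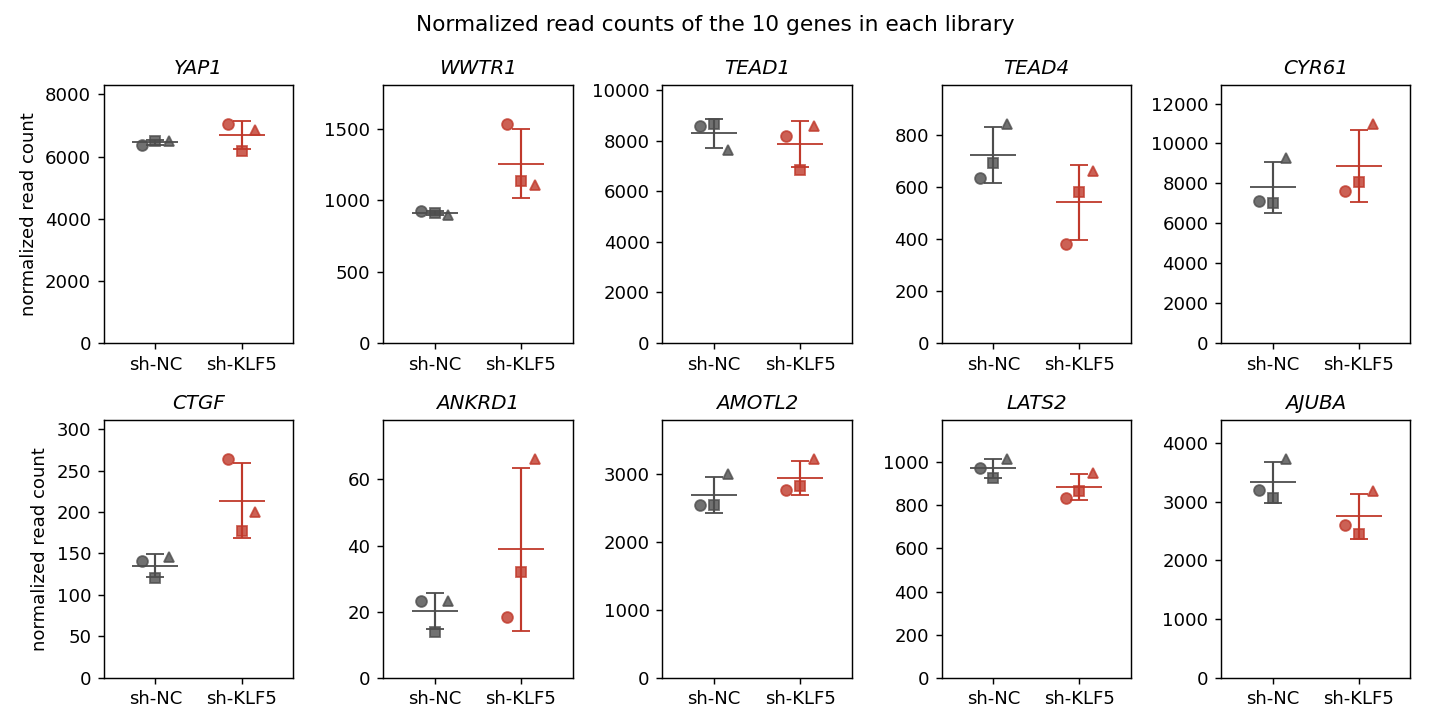
Normalized read counts (vertical axes, each from 0) of the 10 genes in the sh-NC (grey) and sh-KLF5 (red) libraries; circles, squares and triangles are replicates 1, 2 and 3, and horizontal lines with bars are the mean and SD (n = 3). WWTR1 and CTGF are the genes whose groups do not overlap, and sh-KLF5 replicate 1 is the highest library of both and the lowest of TEAD4.

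The coactivator YAP1 was measured at nearly the same level in both groups. YAP1 (ENSG00000137693, chromosome 11 of GRCh38, 102110461 to 102233423) had 6356, 6506 and 6514 normalized counts in sh-NC and 7039, 6192 and 6861 in sh-KLF5. The groups overlapped, with sh-KLF5 replicate 2 below and replicates 1 and 3 above every control. The log2 fold change was 0.05 (SE 0.11; limma adjusted p = 0.819), and the 95% interval of the fold ran from 0.881 to 1.22, so a change of YAP1 RNA as large as that of KLF5 lay outside it.

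WWTR1, which encodes the YAP1 paralog TAZ, rose modestly. WWTR1 (ENSG00000018408, chromosome 3, 149517235 to 149736714) had 925, 908 and 898 normalized counts in sh-NC and 1533, 1133 and 1106 in sh-KLF5. The controls lay close together, and all sh-KLF5 libraries were above them, replicate 1 by the widest margin. It had a log2 fold change of 0.45 (SE 0.13; limma adjusted p = 0.0347), a fold of 1.37 with a 95% interval from 1.12 to 1.66. Without sh-KLF5 replicate 1 the change was 0.30 (limma adjusted p = 0.0386). With sh-NC replicate 1, 2 or 3 left out it was 0.46, 0.45 or 0.44 (adjusted p = 0.1, 0.128 or 0.12), past the threshold in none. In those fits 3.81%, 3.19% or 3.91% of all tested genes passed as higher, against 6.04% in the full fit. The antisense gene WWTR1-AS1 covers 9.45% of the exonic bases of WWTR1, and its own 5, 5 and 2 reads in sh-NC and 14, 7 and 2 in sh-KLF5 were few beside the 846 to 1504 reads of WWTR1. Of the exonic bases of YAP1, 9.97% are covered by the antisense gene AP000942.2, which is not among the genes listed, and whether the counting used strand is not given in the sources used here.

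Per kilobase of gene length, YAP1 held most of the reads of the coactivator pair in every library. Its share of YAP1 and WWTR1 reads was 90.2%, 90.5% and 90.7% in sh-NC and 86.0%, 88.0% and 89.2% in sh-KLF5. Every sh-KLF5 share was below every sh-NC share, with means of 90.5% ± 0.251 and 87.7% ± 1.64 (SD, n = 3). The difference was -2.73 percentage points (two-sided exact permutation test, p = 0.1, the smallest that 3 libraries against 3 allow, and 0.2 after Benjamini-Hochberg adjustment over 6 shares). The WWTR1 share is the remainder of the YAP1 share, so this pair enters the 6 shares as the same measurement.

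**Figure D2:**
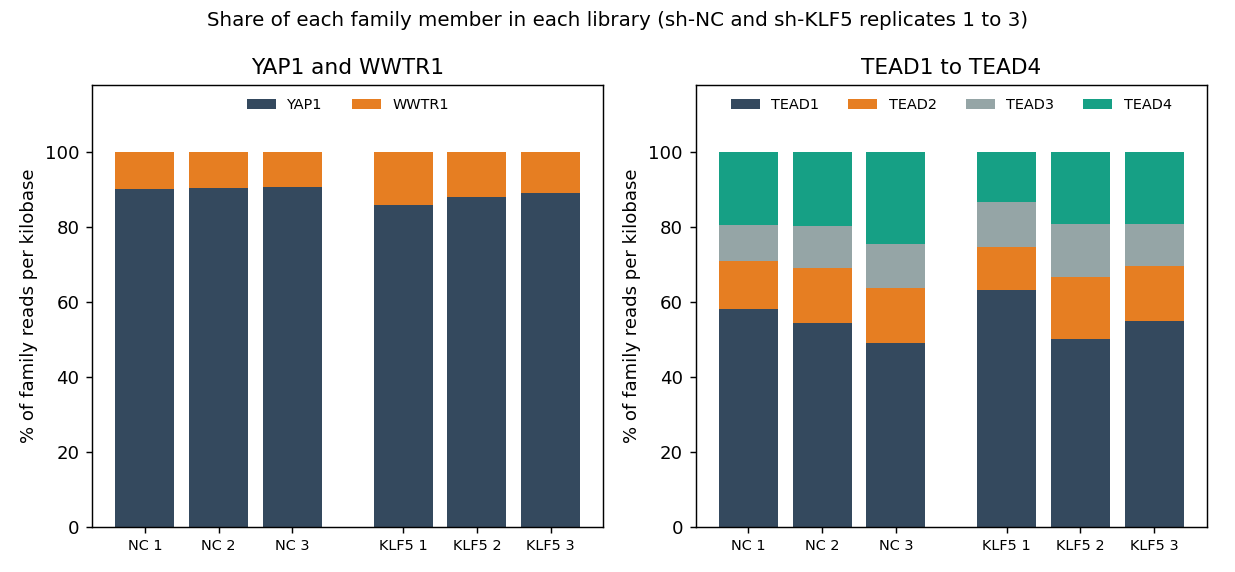
Share of each family member, in % of the reads per kilobase summed over the family (vertical axis), in each library (bars, sh-NC and sh-KLF5 replicates 1 to 3), for YAP1 and WWTR1 (left) and TEAD1 to TEAD4 (right). YAP1 takes 86.0% or more in each library, and the TEAD4 share is lowest in sh-KLF5 replicate 1, at 13.3%.

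TEAD1 and TEAD4, which carry YAP1 and TAZ to DNA, did not pass the test. TEAD1 (ENSG00000187079, chromosome 11, 12674591 to 12944483) had 8597, 8660.3 and 7645 normalized counts in sh-NC and 8178, 6862 and 8589.7 in sh-KLF5. The groups overlapped, and the log2 fold change was -0.08 (SE 0.12; limma adjusted p = 0.724), with a 95% interval of the fold from 0.792 to 1.13. It turned to 0.02 without sh-KLF5 replicate 2.

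TEAD4 (ENSG00000197905, chromosome 12, 2959330 to 3040673) had 634, 691 and 840.4 normalized counts in sh-NC and 380.2, 581 and 661 in sh-KLF5. Replicates 1 and 2 of sh-KLF5 lay below all controls, and replicate 3 lay above the lowest control. Its log2 fold change was -0.44 (SE 0.18; limma adjusted p = 0.12), with a 95% interval of the fold from 0.566 to 0.955. The adjusted p was 0.0351 without sh-KLF5 replicate 3, where the change was -0.61, and 0.0338 without a filter on low counts, whereas without sh-KLF5 replicate 1 the change was -0.21 (adjusted p = 0.279). Within the TEAD family, TEAD4 held 19.4%, 19.7% and 24.4% of the reads per kilobase in sh-NC and 13.3%, 19.2% and 19.2% in sh-KLF5. All sh-KLF5 shares of TEAD4 were below the sh-NC shares, with a difference of -3.94 percentage points (two-sided exact permutation p = 0.1, adjusted 0.2). It was -1.99 points without sh-KLF5 replicate 1, -2.31 without sh-NC replicate 3, and -1.46 without division by length. TEAD1 was the most abundant TEAD gene per kilobase, with a share of the family of 53.9% ± 4.55 in the controls and 56.2% ± 6.70 after silencing (SD, n = 3; exact permutation p = 0.6), a difference that turned negative when sh-KLF5 replicate 1 was left out, and likewise sh-NC replicate 3. The paralogs TEAD2 and TEAD3 had log2 fold changes of -0.14 (limma adjusted p = 0.639) and 0.06 (adjusted p = 0.833), and their shares of the family overlapped between the groups (exact permutation p = 0.9 and 0.2).

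CTGF, CYR61 and ANKRD1 are the genes most often read as the output of YAP and TEAD, and their measured changes were all positive, but CTGF alone passed. CTGF (CCN2, ENSG00000118523, chromosome 6, 131948176 to 131951373) encodes a secreted matrix-associated protein. It had 141, 120.2 and 145 normalized counts in sh-NC and 264, 177 and 199.5 in sh-KLF5. Silenced and control libraries were separated, and sh-KLF5 replicate 1 was again the highest. This was a log2 fold change of 0.64 (SE 0.18; limma adjusted p = 0.0312), a fold of 1.55 with a 95% interval from 1.19 to 2.04. Without sh-KLF5 replicate 1 it was 0.47 (limma adjusted p = 0.0714). Leaving out sh-NC replicate 1, 2 or 3 gave 0.67, 0.55 or 0.69 (adjusted p = 0.0736, 0.152 or 0.069), so passing the threshold needed each of these 4 libraries. In the fits that left out a control, fewer of all tested genes passed as higher, as given for WWTR1. The antisense gene AL133346.1, not listed in the table, covers 8.34% of the exonic bases of CTGF.

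CYR61 (CCN1, ENSG00000142871, chromosome 1, 85580761 to 85583962), a secreted protein of the same CCN family, was far more abundant per length of the gene, as the TPM values below show. It had 7104, 6998 and 9286 normalized counts in sh-NC and 7625, 8074 and 10961 in sh-KLF5. In both groups replicate 3 was the highest library, and the groups overlapped. Its log2 fold change was 0.18 (SE 0.15; limma adjusted p = 0.48), with a 95% interval of the fold from 0.911 to 1.41.

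ANKRD1 (ENSG00000148677, chromosome 10, 90912096 to 90921276), an ankyrin repeat protein of muscle and stressed cells, was close to the limit of what this depth resolves. It had 25, 14 and 22 reads in sh-NC and 18, 33 and 66 in sh-KLF5, or 23.3, 13.8 and 23.3 against 18.3, 32.0 and 66.2 normalized counts. Replicate 1 of sh-KLF5 lay inside the control range, and replicate 3 was the highest of all libraries. The log2 fold change of 0.77 had a standard error of 0.42 (limma adjusted p = 0.273), and the 95% interval of the fold from 0.915 to 3.16 was the widest of the 10 genes. Without sh-KLF5 replicate 1 the change was 1.19 (adjusted p = 0.0382) and ANKRD1 would have been called, and without replicate 3 it was 0.30 (adjusted p = 0.704). The order of the sh-KLF5 libraries differed between ANKRD1 and CTGF, which for ANKRD1 rests on 18, 33 and 66 reads. The cause of this difference was not tested.

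The feedback genes AMOTL2 and LATS2 did not pass the test. AMOTL2 (ENSG00000114019, chromosome 3, 134355874 to 134375479), an angiomotin family protein that binds and retains YAP1, had 2544, 2545 and 2998 normalized counts in sh-NC and 2774, 2828 and 3225 in sh-KLF5. The groups overlapped through sh-NC replicate 3, and the log2 fold change was 0.13 (SE 0.12; limma adjusted p = 0.539), with a 95% interval of the fold from 0.919 to 1.30. LATS2 (ENSG00000150457, chromosome 13, 20973032 to 21061547), the kinase that phosphorylates YAP1 and TAZ, had 973, 926 and 1015 normalized counts in sh-NC and 837, 868 and 953 in sh-KLF5. Replicate 3 of sh-KLF5 exceeded the lowest control, and the log2 fold change was -0.13 (SE 0.11; limma adjusted p = 0.504), with an interval of the fold from 0.77 to 1.08. The pseudogene RPL39P5, with 6 reads or fewer in every library, overlaps 3.13% of the exonic bases of AMOTL2.

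AJUBA (ENSG00000129474, chromosome 14, 22971174 to 22982642), a LIM-domain scaffold that restrains the LATS kinases at junctions, had 3197, 3074 and 3732 normalized counts in sh-NC and 2613, 2458 and 3191 in sh-KLF5. Replicate 3 of sh-KLF5 lay among the controls and the other sh-KLF5 libraries lay below them. In log2 terms the change was -0.28 (SE 0.13; limma adjusted p = 0.174), with a 95% interval of the fold from 0.683 to 0.993. Its paralog LIMD1 had 838, 838 and 842 normalized counts in sh-NC and 596, 756 and 736 in sh-KLF5. LIMD1 did not pass either, with the same log2 fold change of -0.28 (adjusted p = 0.168). Its groups did not overlap, where 15.9% of all tested genes were separated with sh-KLF5 lower. The third member of that family, WTIP, had a log2 fold change of -0.07 (adjusted p = 0.838) that turned to 0.12 without sh-KLF5 replicate 1.

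**Figure D3:**
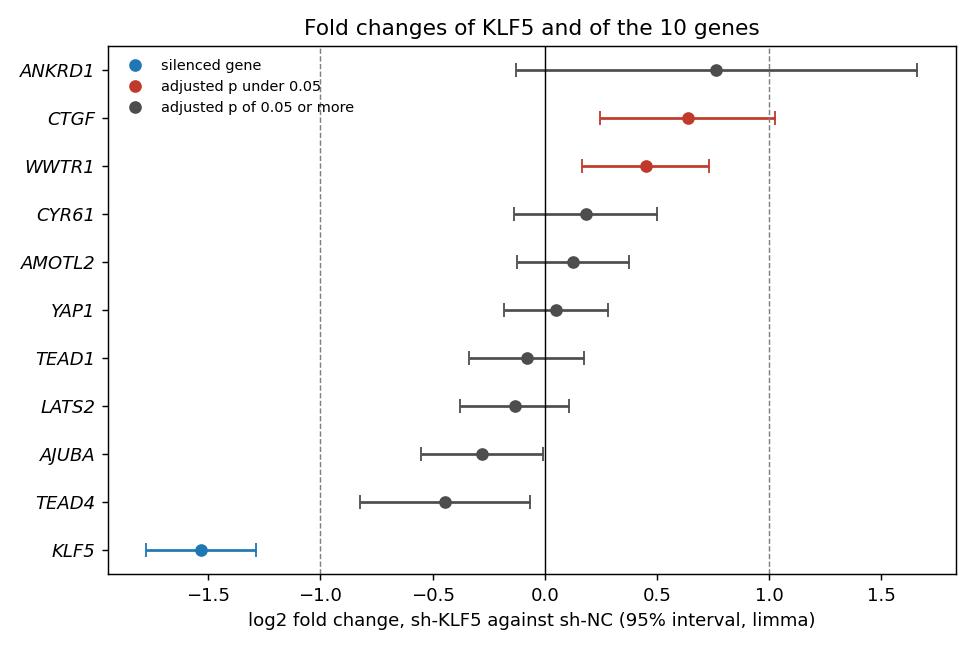
Log2 fold change of sh-KLF5 against sh-NC (horizontal axis; points, limma estimates; bars, 95% intervals) for KLF5 (blue) and the 10 genes, with dashed lines at the fold threshold of 1 and -1. KLF5 stands at -1.53, CTGF and WWTR1 (red, adjusted p under 0.05) at 0.64 and 0.45, and ANKRD1 has the widest interval.

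On a per-length scale, the 10 genes covered a wide range of levels, which kept nearly the same order in both groups. In mean TPM in sh-NC and sh-KLF5, CYR61 was highest (746 ± 98.5 and 853 ± 142, SD, n = 3), followed by YAP1 (242 ± 6.26 and 252 ± 16.5) and TEAD1 (191 ± 18.7 and 181 ± 17.2). AJUBA had 131 ± 9.60 and 109 ± 11.4 TPM and AMOTL2 had 106 ± 6.81 and 116 ± 5.56, and this pair of neighbours changed places, with ranges that overlapped in sh-KLF5 and not in sh-NC. TEAD4 had 74.6 ± 8.62 and 56.1 ± 13.8 TPM. LATS2 (41.0 ± 1.12 and 37.5 ± 1.30) and WWTR1 (25.5 ± 1.14 and 35.5 ± 7.49) overlapped in sh-KLF5, where replicate 1 had 44.0 TPM of WWTR1. CTGF had 13.6 ± 1.15 and 21.6 ± 4.90 TPM, and ANKRD1 was lowest with 2.39 ± 0.63 and 4.58 ± 2.74. The other neighbours in this order did not overlap in either group. KLF5 itself went from 268 ± 5.22 TPM, above YAP1, to 93.8 ± 12.8, below AMOTL2.

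Around the 10 genes, 59 other genes of the pathway and its target lists were examined, of which 56 were listed and 51 tested. Of these, 4 were called higher, where the rule called 1.9% of all tested genes as higher, and 1 was called lower (3.37% of all). Without the fold threshold 8 were higher, 6 lower and 37 did not pass, and the median log2 fold change was 0.00, as over all genes. Genes of these lists that are named below although they were neither called nor paralogs of the 10 genes were chosen after their values were seen.

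Among the 16 genes of the kinase core, which includes LATS2, 1 passed, as lower, and 15 did not, where 6.85% of all tested genes passed as lower. The gene that passed was MAP4K4, a kinase that can phosphorylate LATS1 and LATS2, and it fell from 4830.4, 4735 and 4761 normalized counts in sh-NC to 2797, 3222 and 3513 in sh-KLF5 (log2 fold change -0.59, limma adjusted p = 0.00221). Its groups did not overlap, where 15.9% of all tested genes were separated with sh-KLF5 lower. LATS1, the paralog of LATS2, had a log2 fold change of 0.15 (adjusted p = 0.469). MOB1A, which binds and activates the LATS kinases, had a log2 fold change of -0.14 (limma adjusted p = 0.568) and of -0.30 (adjusted p = 0.0235) without sh-KLF5 replicate 1. Without that library 2 of the 16 genes thus passed as lower, against 9.25% of all genes then tested.

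Of the 20 junction and scaffold regulators, which include AMOTL2 and AJUBA, 17 were tested, 1 rose, 3 fell and 13 did not pass, where 6.04% of all tested genes passed as higher and 6.85% as lower. AMOTL1, the paralog of AMOTL2 and likewise a YAP1-binding angiomotin, fell from 100.6, 110.4 and 108 normalized counts in sh-NC to 26.5, 19.4 and 35.1 in sh-KLF5. This gave a log2 fold change of -1.98 (SE 0.26; limma adjusted p = 7.48e-05), and it stayed between -2.18 and -1.77 when any 1 library was left out. AMOT, the founder of that family, had 5 to 9 reads in every library and was not tested. FAT4, an atypical cadherin at the top of the pathway, had 69.8, 76.9 and 53.1 normalized counts in sh-NC and 156, 134 and 187 in sh-KLF5, a rise of 1.25 on the log2 scale (SE 0.21; limma adjusted p = 0.000736). Its relative FAT1 (-0.52, adjusted p = 0.00629) and the polarity scaffold PATJ (-0.47, adjusted p = 0.0226) fell by less than the fold threshold. FAT1 lost its pass without sh-NC replicate 1 (adjusted p = 0.0539, limma), and PATJ without any library other than sh-KLF5 replicate 1 (adjusted p from 0.0526 to 0.111). BTRC, the subunit of a ubiquitin ligase that recognises phosphorylated YAP1 and TAZ, had a log2 fold change of -0.26 (limma adjusted p = 0.196). Without sh-KLF5 replicate 1 its change was -0.35 (adjusted p = 0.0293), and 4 of the 17 genes passed as lower, against 9.25% of all genes then tested. FAT4 and AMOTL1, on opposite sides of zero, were thus the called genes of a list whose median was -0.15. DCHS1, the ligand of FAT4, had 10.2, 5.91 and 7.43 normalized counts in sh-NC and 1 read in each sh-KLF5 library, and was not tested.

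The coactivators and TEAD partners were 10 genes, of which 8 were tested and WWTR1 alone passed, where 12.9% of all tested genes passed in either direction. VGLL3 and VGLL4, cofactors that compete for TEAD, had log2 fold changes of -0.06 (limma adjusted p = 0.858) and -0.19 (adjusted p = 0.578).

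In a list of 22 YAP/TAZ target genes, 8 rose, 1 fell and 13 did not pass, beside the 6.04% of all tested genes that passed as higher and the 6.85% as lower. This list includes CTGF, CYR61, ANKRD1, AMOTL2 and LATS2, and among its other 17 genes 7 rose, 1 fell and 9 did not pass, with a median log2 fold change of 0.31. The estimate was positive in 14 of these 17 genes, against 7852 of the 15803 tested genes. A lean in sign was not particular to this list, as 13 of the 17 tested junction and scaffold regulators had a negative estimate. No set test was run, and the list holds genes that many other signals also control.

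The 3 target genes that were called were GADD45A, IGFBP3 and NUAK2, all higher, a direction in which 1.9% of all tested genes were called. GADD45A, a growth arrest gene induced by DNA damage, rose from 327, 249.3 and 285 normalized counts in sh-NC to 638, 720.0 and 615 in sh-KLF5 (log2 fold change 1.198, SE 0.14; limma adjusted p = 2.04e-05). IGFBP3, a carrier of insulin-like growth factors, went from 2089, 1798 and 2018 to 4164, 3806 and 3902 normalized counts (1.01, SE 0.11, adjusted p = 1.26e-05). NUAK2, an AMPK-related kinase whose TEAD matches are shown above, had 68.0, 78.8 and 91.3 normalized counts in sh-NC and 173, 156 and 156 in sh-KLF5 (1.03, SE 0.19, adjusted p = 0.00142). The IGFBP3 promoter held no TEAD letters, and no promoter entry was found for GADD45A. The groups of all 3 genes did not overlap, where 15.4% of all tested genes were separated with sh-KLF5 higher. IGFBP3 and NUAK2 lay near the fold threshold. Without sh-KLF5 replicate 1 they stood at 0.97 and 0.98, IGFBP3 at 0.95 without sh-NC replicate 2 and NUAK2 at 0.92 without sh-NC replicate 1, each still past the adjusted p.

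Below the fold threshold were RBMS3 (log2 fold change 0.82, limma adjusted p = 0.00775), TGFB2 (0.65, adjusted p = 0.00246), F3 (0.63, adjusted p = 0.00286) and NT5E (0.59, adjusted p = 0.00934), which rose beside CTGF. TGFB2 encodes a growth factor of the TGF-beta family, F3 the tissue factor that starts coagulation, and NT5E the surface enzyme CD73. DOCK5, an activator of the GTPase Rac, fell by 0.58 on the log2 scale (adjusted p = 0.00358). RBMS3 no longer passed without sh-NC replicate 3 (adjusted p = 0.0669, limma), nor NT5E without sh-NC replicate 2 (adjusted p = 0.0724).

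In the CCN family, CTGF rose, CYR61 did not pass and NOV fell. NOV (CCN3), a secreted matrix-associated protein like the others, went from 839, 838 and 832 normalized counts in sh-NC to 556, 441 and 431 in sh-KLF5. This was a log2 fold change of -0.82 (SE 0.13, limma adjusted p = 0.000362). The groups of NOV did not overlap, where 15.9% of all tested genes were separated with sh-KLF5 lower. WISP2 and WISP3 had too few reads to be tested, at 8.49 normalized counts or fewer in every library, and WISP1 was not found by symbol among the genes listed.

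**Figure D4:**
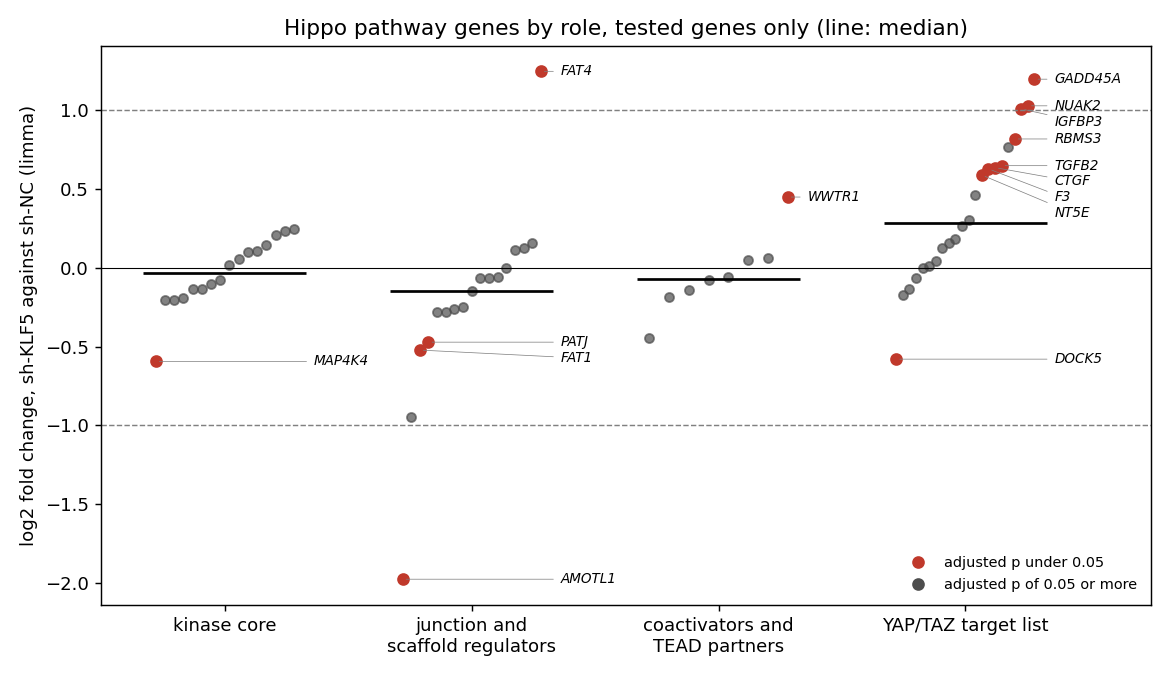
Log2 fold change of sh-KLF5 against sh-NC (vertical axis, limma) of each tested gene in 4 role lists (horizontal axis), with genes of adjusted p under 0.05 in red and named, and a line at each median; genes in more than 1 list are drawn in each. The target list has a median of 0.29 and 8 red points above 0, and the other lists have medians from -0.15 to -0.03.

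The genes whose profile over the 6 libraries was most like that of YAP1 and CTGF were searched among 10659 genes with a mean of at least 100 normalized counts, as a description with no test. For YAP1 they were TAB2 (Pearson r = 0.990), ZNF606 (0.990) and NIPA2 (0.988), and for CTGF, the member with the smallest p, they were the ferritin pseudogene FTH1P7 (0.999), BTBD10 (0.996) and PRR13 (0.994). These r values are the highest of a search over 10659 genes with 6 points each, and values this high can arise from the search itself. The reads of FTH1P7 cannot be told apart with certainty from those of its parent gene. All of these points share the 6 libraries and their scaling, and TAB2, like YAP1, had its highest value in sh-KLF5 replicate 1, at 3678 normalized counts.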

How the data were processed

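RNA of SKOV3 cells was measured in 6 libraries, 3 sh-NC and 3 sh-KLF5, grouped by their labels. Per the submitters' processing notes, HISAT2 2.0.5, featureCounts 1.5.0-p3 and DESeq2 1.20.0 were used with hg38. The authors deposited 1 table with a normalized signal per gene and library (reads divided by 1 factor per library), the gene length, and columns of their own group means, fold changes and p-values, which were not used. Taking the smallest nonzero value of a library as 1 read gave whole reads for 100% of values (tolerance 1e-06). A count of 0 allows up to 3 reads, or 0.171 to 0.189 CPM, for counting error only. Coordinates and lengths matched GENCODE release 29 for 100% of genes. TPM were computed from the recovered reads and the deposited lengths.

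The comparison used limma 3.58.1 (R 4.3.3) with a mean-variance trend and robust empirical Bayes, two-sided, on log2(normalized count + 1), after filterByExpr of edgeR 4.0.16 with a minimum count of 10, with Benjamini-Hochberg adjustment over 15803 genes. Fold changes on this scale understate changes of genes with few reads. The script was tested on simulated data. Alternatives were edgeR and DESeq2 1.42.0 on the recovered reads, other scalings, pseudocounts, filters and thresholds, a replicate block, and leaving out each library. The text names the 10 genes, KLF5, pathway genes past the call threshold, paralogs, overlapping genes and the most similar genes; others are said to be named after their values were seen. The genes and lists were chosen with earlier results of these data known. Promoters came from RefSeq, matched by current symbol. Protein sequences were not used here. Figures were drawn with matplotlib 3.10.9.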

Additional observations from a re-analysis of the deposited data

How the results depend on the processing

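None of the 10 genes was called lower under any alternative, and leaving out 1 library gave 0 to 1 called higher, the 1 being ANKRD1 without sh-KLF5 replicate 1. With no fold threshold 2 were higher, WWTR1 and CTGF, and 0 without sh-NC replicate 1, 2 or 3. Without sh-KLF5 replicate 1 the 2 were WWTR1 and ANKRD1. TEAD4 passed as lower without a filter, with a replicate block and without sh-KLF5 replicate 3. Of the other pathway genes, 4 were called higher (8 with no fold threshold, 2 to 4 without 1 library, the 2 being without sh-KLF5 replicate 1) and 1 lower (2 without a filter, 6 with no fold threshold). Over all genes, 301 were called higher (955 with no fold threshold) and 533 lower (231 with at least 10 reads in every library, 811 without a filter, 1083 with no fold threshold). Without 1 library, the log2 fold change ranged from -0.15 to 0.0163 for TEAD1, -0.25 to 0.0733 for TEAD2, -0.0537 to 0.14 for TEAD3 and -0.25 to 0.12 for WTIP. NUAK2 was at 0.99 with a pseudocount of 5. The causes were not tested. The main fit did not pair libraries by replicate number. Correlations of same-numbered libraries' deviations were 0.130, 0.0068 and 0.108, and those of differently numbered libraries ranged from -0.121 to 0.0427. Whether the numbers mark pairs was not tested. With the replicate block, 327 genes were called higher and 567 lower, 0 of the 10 genes either way, and TEAD4 had a log2 fold change of -0.44 with an adjusted p of 0.0167 from limma. The differences in the shares of YAP1 (and so of WWTR1), TEAD3 and TEAD4 kept their direction in every alternative run. Those of TEAD1 and TEAD2, 2.25 and 0.0964 percentage points, ranged without 1 library from -1.35 to 5.28 and from -1.09 to 1.53, and TEAD2 was at -0.0779 with no division by length. AMOT, DCHS1, CRB3, WISP2 and WISP3 had too few reads to be tested.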
